A study of Mus musculus with 8 samples.

Results

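The 45 genes described here are those of antigen presentation and its regulation, with 1 exception named below. They were taken from the deposited gene table as every row that maps to a mouse protein-coding symbol beginning with H2-, together with B2m, Cd74, Tap1, Tap2, Tapbp, Ciita, Nlrc5, Psmb8, Psmb9, Psmb10 and Cd1d1. They are 45 of 55401 genes in the table. By role, 33 belong to MHC class I, 11 to class II and 1, H2-Ke6, to neither, since it encodes a dehydrogenase that only lies in the same region. RNA was sequenced from 8 mouse libraries labelled as airway cells, and the series asked which genes change after Cdh1, the gene of the adhesion protein E-cadherin, is inactivated in club cells, the secretory cells of the small airways. All 8 libraries came from animals with a Cre recombinase under Scgb1a1, a club cell gene, taken at day 10 after tamoxifen. The 4 control libraries carried 1 floxed and 1 wild-type Cdh1 allele, and the 4 others carried 2 floxed alleles. The labels give no age or strain, and nothing in them states that each library is a separate animal, so a p-value here reflects how far these libraries scatter, which may be technical.

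MHC class I molecules show peptides from inside the cell to CD8 T cells and are found on nearly all nucleated cells. Each is a heavy chain bound to beta-2-microglobulin and loaded with peptides that the proteasome cuts and the TAP transporter moves into the endoplasmic reticulum. MHC class II molecules show peptides taken up from outside to CD4 T cells. They are alpha and beta chain pairs that travel with the invariant chain Cd74, and they are best known from dendritic cells, B cells and macrophages. In the lung, alveolar type II cells also carry class II without inflammation.

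Promoter sequences show what the 2 classes share and where they part, and 5 are printed here as examples from both classes. RefSeq promoters on GRCm38.p6, which run from 250 bases before to 50 after a gene's start, were available for 37 of the 45 members. The stretches below are the 200 bases before the start, 5′ to 3′ on the strand of the gene. H2-K1 lies at chr17:34000334-34000533 on the minus strand, where the more downstream of its annotated starts was used. H2-Q7 lies at chr17:35438955-35439154 on the plus strand, B2m at chr2:122147487-122147686 on the plus strand, H2-Aa at chr17:34287824-34288023 on the minus strand and H2-Eb1 at chr17:34305667-34305866 on the plus strand. Capitals mark matches on either strand to TGATTGG, the core of the Y box that NF-Y binds, to AGCAAC, letters found in X boxes, to GGGATTCCC, an NF-kB site of the class I enhancer, and to GAANNGAAA or GAAANNGAA, letters of interferon-stimulated elements. A match on the other strand is shown as it reads on the printed strand.
H2-K1: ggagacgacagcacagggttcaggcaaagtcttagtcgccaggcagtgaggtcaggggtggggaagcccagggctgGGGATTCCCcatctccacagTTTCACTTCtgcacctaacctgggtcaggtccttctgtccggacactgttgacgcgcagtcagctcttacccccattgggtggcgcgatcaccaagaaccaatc
H2-Q7: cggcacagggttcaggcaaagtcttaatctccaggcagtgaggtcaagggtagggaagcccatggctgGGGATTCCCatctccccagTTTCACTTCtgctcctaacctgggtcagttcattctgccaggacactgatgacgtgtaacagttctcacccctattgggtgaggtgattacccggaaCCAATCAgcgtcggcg
B2m: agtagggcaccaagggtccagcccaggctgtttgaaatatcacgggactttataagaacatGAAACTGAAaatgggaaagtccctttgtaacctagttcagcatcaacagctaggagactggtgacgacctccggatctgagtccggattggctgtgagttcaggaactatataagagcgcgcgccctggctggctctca
H2-Aa: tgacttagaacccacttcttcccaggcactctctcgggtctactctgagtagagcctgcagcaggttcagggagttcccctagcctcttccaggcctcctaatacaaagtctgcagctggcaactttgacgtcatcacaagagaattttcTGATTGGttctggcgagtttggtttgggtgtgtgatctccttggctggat
H2-Eb1: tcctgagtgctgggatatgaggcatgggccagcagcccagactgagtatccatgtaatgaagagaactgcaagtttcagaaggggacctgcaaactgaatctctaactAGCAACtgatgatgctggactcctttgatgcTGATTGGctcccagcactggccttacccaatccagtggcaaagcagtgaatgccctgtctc
No matches overlap in these stretches.

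The class I heavy chains H2-K1 and H2-Q7 hold GGGATTCCC followed by GAANNGAAA, and B2m holds GAAANNGAA. The class II chains H2-Aa and H2-Eb1 hold TGATTGG, as does H2-Q7, and H2-Eb1 also holds AGCAAC. In H2-K1 the TGATTGG match runs across the start and is therefore not in capitals. Over the whole 300-base promoters, TGATTGG was present in 7 of 8 class II members and 17 of 28 class I members, against 7.82% of all 32851 promoters in the table. AGCAAC was present in 4 of 8 class II and 2 of 28 class I members, against 14.79% of all promoters. GGGATTCCC was present in 4 of 28 class I members (H2-K1, H2-D1, H2-Q6 and H2-Q7) and 0 of 8 class II members, against 0.35% of all promoters. GAANNGAAA was present in 8 of 28 class I and 0 of 8 class II members, against 7.52%, and GAAANNGAA in 3 of 28 and 0 of 8, against 8.56%. These motifs were chosen with the sequences known, several of the heavy chains are near copies of one another, and a match is a run of letters and not a shown binding site.

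Total counts ran from 15111663 to 21673654 read pairs per library. Levels are given as CPM, counts scaled to a common library size, and a count of 0 is compatible with up to 3 counts, or 0.136 to 0.207 CPM depending on the library, by counting error alone. Cdh1 did not separate the groups (log2 fold change 0.07 ± 0.09 SE, adjusted p = 0.648), and the sum over all exons would not reveal a missing floxed part, so the second group is named by its label, as mutant-labelled. According to the series text, EPCAM-positive cells depleted of immune and endothelial cells were sorted by GFP, and whether a library holds GFP-positive or GFP-negative cells is not in the labels. Markers of other cells were present in every library. Over 6 leukocyte genes the summed level was 296 to 744 CPM in controls and 453 to 516 CPM in the mutant-labelled libraries, over 6 endothelial genes 3390 to 4430 and 2710 to 3030 CPM, and over 5 alveolar type II genes 21800 to 31300 and 23800 to 30000 CPM. The 4 club cell genes summed to 22500 to 23700 CPM in controls and 6640 to 8370 CPM in the mutant-labelled libraries. The 4 pan-epithelial genes summed to 670 to 894 and 1150 to 1330 CPM, and 4 ciliated cell genes to 473 to 646 and 634 to 817 CPM. By edgeR's quasi-likelihood test Epcam, Krt8, Krt18, Foxj1, Dynlrb2 and Ccdc113 were called higher, and Cdh1 and Tppp3 were not. Of the 6 endothelial genes 4 were called lower, and of the 4 club cell genes 3. Among all genes tested 5.45% were called higher and 2.36% lower. In such bulk samples, fewer cells of a type and less RNA per cell cannot be told apart.

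Class I genes stood at nearly the same level in both groups. Of 33 members, 23 were measured well enough to test, and 0 of them rose or fell by edgeR's quasi-likelihood test, adjusted over 16964 genes by the Benjamini-Hochberg method, where 7.81% of all genes were called (5.45% higher and 2.36% lower in mutant-labelled libraries). At an unadjusted p under 0.05 there was 1 class I gene, H2-M3, against 25.2% of all genes, and DESeq2 also called 0, against 13.4%. The median log2 fold change of the 23 genes was -0.07, against -0.01 over all genes tested, with 10 values above zero and 13 below. In 0 of the 23 did the groups fail to overlap, against 16.8% of all genes.

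The main classical heavy chains were among the highest of all members. H2-K1 (ENSMUSG00000061232, GRCm38 chromosome 17, 33996017 to 34000347) stood at 1526, 1395, 1680 and 1577 CPM in controls 1 to 4 and at 1475, 1574, 1643 and 1741 CPM in mutant-labelled libraries 1 to 4. Values of both kinds lie across each other, with a log2 fold change of 0.06 ± 0.09 and a ratio whose 95% interval runs from 0.907 to 1.2. H2-D1 (ENSMUSG00000073411) stood at 1729, 1425, 1654 and 1641 CPM in controls and 1554, 1638, 1679 and 1885 CPM in the mutant-labelled libraries (log2 fold change 0.07 ± 0.09, ratio interval 0.905 to 1.21). For both chains the lowest of the 8 values was in control 2 and the highest in mutant-labelled library 4. B2m (ENSMUSG00000060802, chromosome 2, 122147686 to 122153083), the light chain of every class I molecule, stood at 1253, 1027, 1226 and 1263 CPM in controls and 1028, 1094, 1171 and 1080 CPM in the mutant-labelled libraries. Its 3 other controls lie above all mutant-labelled values, while control 2 lies below them (log2 fold change -0.12 ± 0.09, ratio interval 0.797 to 1.06).

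**Figure D1:**
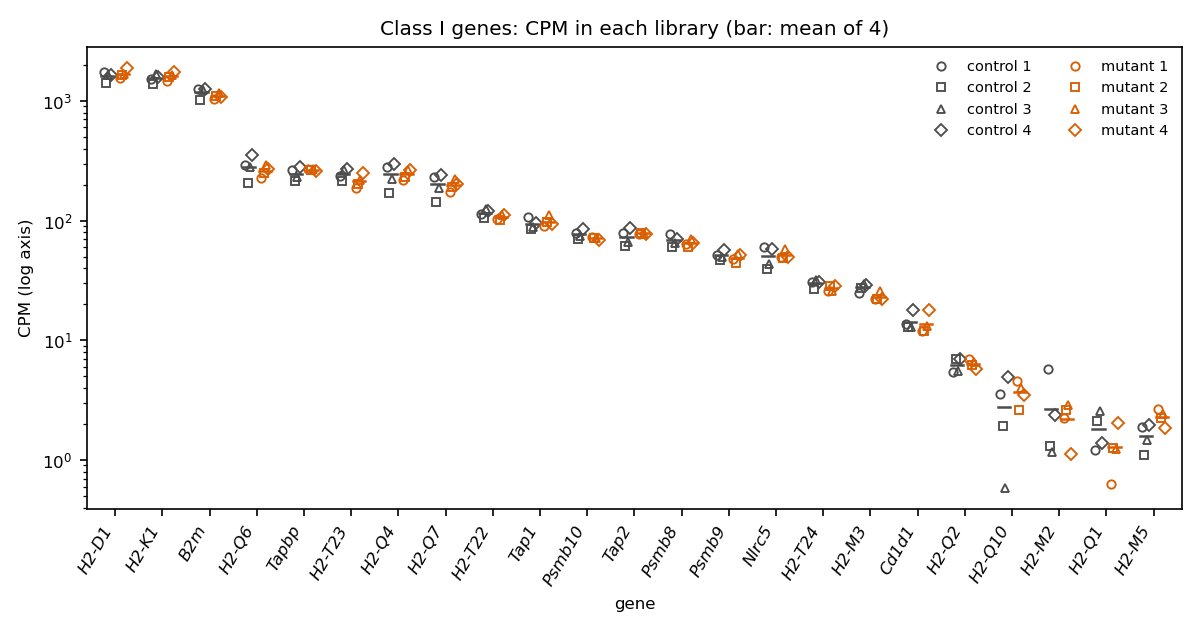
Level of the 23 measured class I genes in each library, on a log axis in CPM. Grey symbols are controls and orange symbols mutant-labelled libraries, with 1 symbol shape per replicate number and a bar at the mean of 4. The 2 groups overlap for every gene shown, and the scatter of H2-Q10 and H2-M2, both under 6 CPM, is wider in controls.

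H2-Q4, H2-Q6 and H2-Q7 belong to the Q region, which includes the Qa-2 antigens, and had their lowest and highest values among the controls. H2-Q4 stood at 279.7, 170.9, 222.3 and 299.9 CPM in controls and 219.5, 230.6, 264.2 and 265.5 CPM in the mutant-labelled libraries (log2 fold change 0.01 ± 0.16). H2-Q6 stood at 291.1, 204.4, 283 and 353.8 CPM in controls and 227.6, 252, 291.1 and 270.5 CPM in the mutant-labelled libraries (-0.12 ± 0.15). H2-Q7 stood at 230.8, 143.8, 188 and 242.5 CPM against 173.9, 189.4, 222.8 and 201.1 CPM (-0.03 ± 0.16). In all 3 genes control 2 was lowest and control 4 highest, and every mutant-labelled value lay between them. These genes share sequence: 17.9% of the 75-base stretches of H2-Q6 and 19.1% of those of H2-Q7 also occur in another gene, and reads that map to several places were not counted. H2-Q4 shares 7.2%, and 19.1% of its exon bases lie in exons of Gm11131.

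The member nearest to the threshold in class I was H2-M3, which presents formylated peptides of bacteria and mitochondria. H2-M3 (ENSMUSG00000016206, chromosome 17, 37270220 to 37274484) stood at 25.05, 27.41, 29.27 and 29.15 CPM in controls and 22.22, 22.35, 26.05 and 22.28 CPM in the mutant-labelled libraries. Of the mutant-labelled values, 3 lie under all controls and that of library 3 lies above control 1. The log2 fold change was -0.26 ± 0.09 (ratio interval 0.733 to 0.958, adjusted p = 0.104 by edgeR's quasi-likelihood test). Without control 1 it was -0.30 with an adjusted p of 0.0471, within a range of 0.0262 to 0.295 over the alternatives. H2-T23, the Qa-1 chain that NKG2A receptors read, stood at 236.9, 213.8, 264.1 and 268.1 CPM in controls and 188.4, 202.9, 217.8 and 248.7 CPM in the mutant-labelled libraries (-0.20 ± 0.11, adjusted p = 0.278). Cd1d1, which presents lipids to NKT cells, stood at 13.73, 12.81, 12.81 and 18.03 CPM against 11.86, 11.89, 13.16 and 17.89 CPM (-0.07 ± 0.17), with the replicate numbered 4 highest in both groups and 19.4% of its 75-base stretches shared with Cd1d2. H2-T22, a ligand of some gamma-delta T cells, and H2-T24 gave -0.12 ± 0.07 and -0.15 ± 0.08.

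The remaining heavy chains were low or not detectable. H2-Q2 had means of 6.238 ± 0.8382 CPM in controls and 6.372 ± 0.5286 CPM in the mutant-labelled libraries (SD, n = 4 each), and H2-Q1, H2-Q10, H2-M2 and H2-M5 at means of 1.289 to 3.671 CPM. Their log2 fold changes ran from -0.47 for H2-Q1 to 0.50 for H2-M5, with standard errors of 0.22 to 0.51. The spread inside the groups was as wide as this: H2-M2 reached 5.781 CPM in control 1 and 1.176 CPM in control 3, and H2-Q10 4.97 CPM in control 4 and 0.5878 CPM in control 3. The 10 members that did not pass the filter on low counts were H2-T3 with 27 counts over all 8 libraries, H2-M10.2 with 11, H2-M9 with 7, H2-M10.1 with 1, and H2-M1, H2-M10.3, H2-M10.4, H2-M10.5, H2-M10.6 and H2-M11 with 0. The M-region genes that did not pass the filter, several of them known from the vomeronasal organ, were thus at or near the counting floor.

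The machinery that supplies class I with peptide also differed little. Tap1 and Tap2, the subunits of the peptide transporter, gave log2 fold changes of 0.05 ± 0.10 and 0.09 ± 0.11. Tap2 stood at 79.05, 60.96, 65.9 and 86.84 CPM in controls and 78.05, 79.28, 78.03 and 77.16 CPM in the mutant-labelled libraries. Tap1 stood at 107.9, 84.65, 89 and 96.37 CPM against 89.8, 97.71, 111.2 and 93.37 CPM. Tapbp, or tapasin, which bridges transporter and heavy chain, stood at 262.5, 213.4, 233.4 and 279.4 CPM against 271.2, 263, 271.1 and 259.3 CPM (0.11 ± 0.09). For Tap2 and Tapbp the 4 mutant-labelled values are close together and lie inside the wider range of the controls.

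The 3 immunoproteasome subunits, which interferon gamma induces, lay slightly under the controls. Psmb8 stood at 77.6, 60.27, 65.25 and 70.81 CPM in controls and 64.18, 59.92, 70.47 and 65.57 CPM in the mutant-labelled libraries (-0.08 ± 0.09). Psmb9 stood at 51.83, 46.49, 50.08 and 56.92 CPM against 47.78, 44.27, 52.26 and 51.21 CPM (-0.07 ± 0.08). Psmb10 stood at 78.66, 69.91, 74.77 and 84.85 CPM against 72.36, 71.97, 71.7 and 69.46 CPM (-0.11 ± 0.07). None of the 3 differed beyond the spread of its libraries. Nlrc5, the transactivator of class I genes, stood at 60.31, 39.81, 43.21 and 57.64 CPM in controls and 49.85, 48.8, 58.31 and 49.81 CPM in the mutant-labelled libraries (0.04 ± 0.14, ratio interval 0.831 to 1.27). Its controls fall into a higher pair, 1 and 4, and a lower pair, 2 and 3, with 3 of the mutant-labelled values between the pairs. Strand was not used in counting, and 29.0% of the exon bases of Tapbp, 18.5% of Tap2 and 14.7% of Psmb8 lie in exons of other genes, while Psmb9 and Tap1 overlap by 212 bases.

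Class II genes had fold changes in both directions, and 0 of 11 was called by edgeR's quasi-likelihood test, against 7.81% of all genes. DESeq2 called 1, H2-Eb1, against 13.4% of all genes. All 11 members were measured, their median log2 fold change was 0.11 against -0.01 over all genes tested, and 8 values lay above zero and 3 below. At an unadjusted p under 0.05 there was 1 gene, H2-Eb1, which was also the only class II member whose groups did not overlap. Mutant-labelled libraries lay wholly under the controls for 7.07% of all genes tested and wholly above them for 9.75%.

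The class II chains did not share a direction. H2-Eb1 (ENSMUSG00000060586, chromosome 17, 34305867 to 34316674), the E beta chain, stood at 388, 383.5, 447.1 and 444.9 CPM in controls and 313.5, 349.9, 361.3 and 361.5 CPM in the mutant-labelled libraries. The log2 fold change was -0.26 ± 0.09 (ratio interval 0.73 to 0.951, adjusted p = 0.0923 by edgeR's quasi-likelihood test). DESeq2 gave -0.27 with an adjusted p of 0.0235, and over the alternatives the adjusted p ran from 0.0235 to 0.239. H2-Aa, the A alpha chain, stood at 577.2, 570.4, 631.3 and 696.5 CPM in controls and 525.4, 582.4, 612.9 and 616 CPM in the mutant-labelled libraries, so that the groups overlap (-0.08 ± 0.09). H2-Ab1, its beta chain partner, stood at 486.3, 330.1, 373.4 and 460.7 CPM in controls and 415.1, 414.7, 477.5 and 478.7 CPM in the mutant-labelled libraries (0.11 ± 0.13). Here controls 2 and 3 lie under every mutant-labelled library and control 1 lies above them all. H2-Eb2, a second E beta gene, was low, at 6.455, 3.444, 1.587 and 3.535 CPM against 2.072, 2.399, 3.137 and 2.219 CPM (-0.62 ± 0.36). The row of H2-Ea-ps, the E alpha chain that several laboratory strains do not make, held 1 count over all 8 libraries.

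The invariant chain had the widest control scatter among the abundant members. Cd74 stood at 1303, 820.1, 978.5 and 1557 CPM in controls, a 1.9-fold range, and at 1359, 1443, 1455 and 1508 CPM in the mutant-labelled libraries, a 1.11-fold range. Controls 1, 2 and 3 lie under every mutant-labelled library and control 4 above them all, with a log2 fold change of 0.31 ± 0.18 (ratio interval 0.94 to 1.63, adjusted p = 0.308). Ciita (ENSMUSG00000022504, chromosome 16, 10480059 to 10528418), the master transactivator of class II genes, stood at 43.84, 30.51, 34.86 and 42.63 CPM in controls and 43.63, 44.98, 52.21 and 39.44 CPM in the mutant-labelled libraries. Again controls 2 and 3 are the lowest of the 8, and the log2 fold change was 0.24 ± 0.13 (ratio interval 0.97 to 1.45, adjusted p = 0.267).

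The genes that edit class II cargo did not differ beyond the spread of their libraries. H2-DMa and H2-DMb1, which form the exchange factor that removes the invariant chain fragment, stood at 54.35 ± 5.38 and 72.24 ± 9.10 CPM in controls and 54.98 ± 3.28 and 74.08 ± 5.38 CPM in the mutant-labelled libraries (SD, n = 4 each). In single libraries H2-DMa stood at 54.63, 46.84, 56.49 and 59.43 CPM against 51.86, 54.58, 53.89 and 59.59 CPM, and H2-DMb1 at 67.3, 62.13, 77.71 and 81.82 CPM against 70.69, 69.85, 74.16 and 81.64 CPM. Their ratio intervals were 0.886 to 1.15 and 0.881 to 1.19. H2-DMb2, whose 75-base stretches are shared with H2-DMb1 or other genes for 19.9%, stood at 13.97, 11.92, 9.523 and 15.78 CPM against 16.17, 11.72, 16.47 and 13.68 CPM (0.18 ± 0.17). H2-Ob, the beta chain of the factor that restrains H2-DM and is best known from B cells, stood at 14.16, 15.22, 10.23 and 21.88 CPM against 17.15, 12.87, 18.93 and 17.48 CPM (0.11 ± 0.21). Its alpha chain H2-Oa stood at 3.083, 2.273, 2.116 and 4.611 CPM against 3.799, 2.726, 3.921 and 3.985 CPM (0.25 ± 0.26). For both, control 3 was lowest and control 4 highest. The 6 B cell markers summed to 51.5, 68.3, 41.1 and 98.2 CPM in controls and 88.5, 60.5, 94.2 and 66.1 CPM in the mutant-labelled libraries, with the same lowest and highest control, and their part in these levels was not tested.

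**Figure D2:**
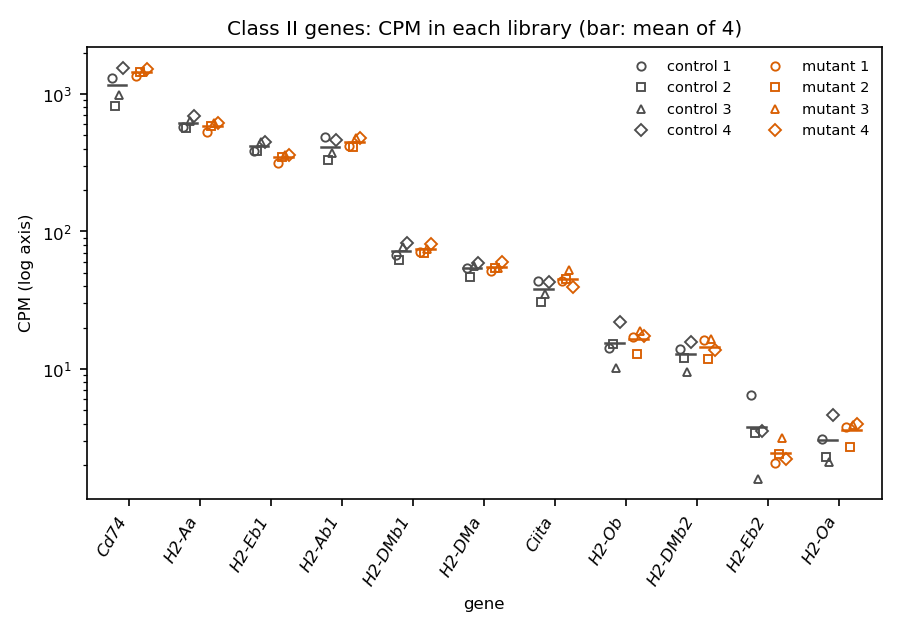
Level of the 11 class II genes in each library, on a log axis in CPM. Grey symbols are controls and orange symbols mutant-labelled libraries, with 1 symbol shape per replicate number and a bar at the mean of 4. The controls of Cd74 spread from 820.1 to 1557 CPM around a narrow group of mutant-labelled values, and H2-Eb1 is the only gene whose groups are apart.

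How large a difference could have gone unseen is given by the intervals. The 95% interval of the ratio between groups lay within 1.5-fold in either direction for 19 of 23 class I members and 7 of 11 class II members, against 55.8% of all genes tested. Among members with a mean of at least 10 CPM it did so for 18 of 18 class I members and 7 of 9 class II members, against 76.9% of the 10658 genes at that level. The exceptions in class II at that level were Cd74, whose interval reached 1.63, and H2-Ob, whose interval reached just over 1.5. The intervals are those of 4 libraries against 4, and a p that misses the threshold does not show that the levels are the same.

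**Figure D3:**
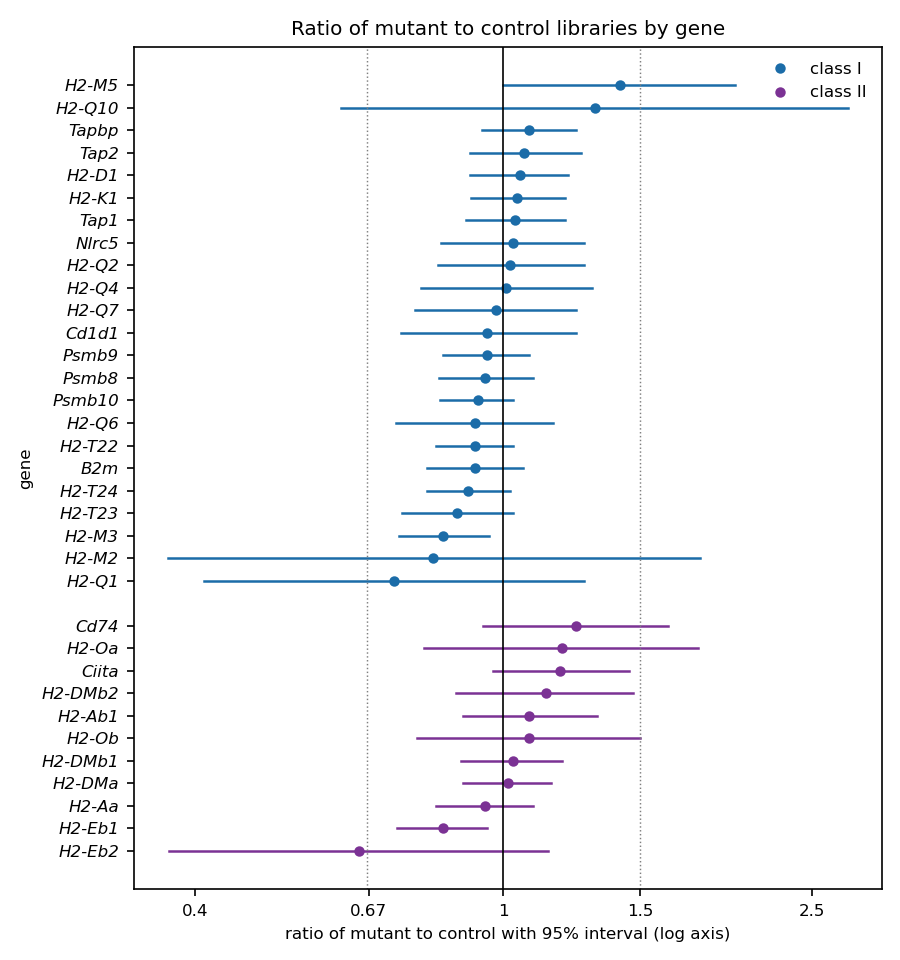
Ratio of mutant-labelled to control libraries for each measured class I (blue) and class II (purple) gene, on a log axis. Points are fitted ratios, bars 95% intervals from edgeR, and dotted lines mark 1.5-fold in either direction. Most class I intervals lie between the dotted lines, and the widest belong to H2-Q10, H2-M2, H2-Q1 and H2-Eb2, all with means under 4 CPM in both groups.

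Within a library, some pairs of class II genes had ratios that did not overlap between groups. After adjustment over all 9 pairs tested, no exact permutation p was under 0.05, which does not show that the ratios were equal. Ratios between chain genes were taken within each library for 9 pairs chosen after the levels were seen. Of the 9, 5 did not overlap between groups, against 18.9% of all pairs of genes with a mean of at least 10 CPM. The pairs share genes, as in the ratios among Cd74, H2-Eb1 and H2-Aa, so they are not separate results. Neither this share nor the p-values allow for the choice of pairs, so they do not show an excess. The 5 pairs without overlap had an exact two-sided permutation p of 0.0286, the smallest that 70 arrangements can give. It was 0.0515 after adjustment over the 9 pairs (0.0858 for the 3 that stayed apart after the GC step below). Cd74 per H2-Eb1 was 3.36, 2.14, 2.19 and 3.50 in controls and 4.33, 4.12, 4.03 and 4.17 in mutant-labelled libraries, so every mutant-labelled ratio was above every control. H2-Eb1 per H2-Aa was 0.672, 0.672, 0.708 and 0.639 in controls and 0.597, 0.601, 0.589 and 0.587 in mutant-labelled libraries, so this ratio was lower in all 4. Cd74 per H2-Aa was 2.26, 1.44, 1.55 and 2.23 in controls and 2.59, 2.48, 2.37 and 2.45 in mutant-labelled libraries. H2-Ab1 per H2-Aa, the pair that forms one molecule, overlapped between groups at 0.669 ± 0.12 in controls and 0.765 ± 0.035 in mutant-labelled libraries (SD, n = 4 each).

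In class I, the ratio between the main heavy chains was close in both groups, and that of light to heavy chain depended on how GC content was handled. H2-D1 per H2-K1 was 1.04 ± 0.063 in controls and 1.05 ± 0.026 in mutant-labelled libraries (SD, n = 4 each). B2m per H2-K1 was 0.821, 0.736, 0.730 and 0.801 in controls and 0.697, 0.695, 0.713 and 0.620 in mutant-labelled libraries, without overlap, and B2m per H2-D1 was 0.739 ± 0.022 and 0.650 ± 0.054, also without overlap. The GC content of these genes differs, at 41.2% for B2m and 54.3% for H2-K1. After the trend of counts with GC content was removed from each library, an alternative added after seeing the data, B2m per H2-K1 overlapped between groups (0.811, 0.657, 0.658 and 0.875 against 0.720, 0.739, 0.722 and 0.647), and so did B2m per H2-D1. The 3 class II ratios named first stayed apart after this step, with Cd74 per H2-Eb1 at 2.84 ± 0.58 in controls and 4.04 ± 0.13 in mutant-labelled libraries. A ratio within a library shows unequal change and does not say which gene moved.

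**Figure D4:**
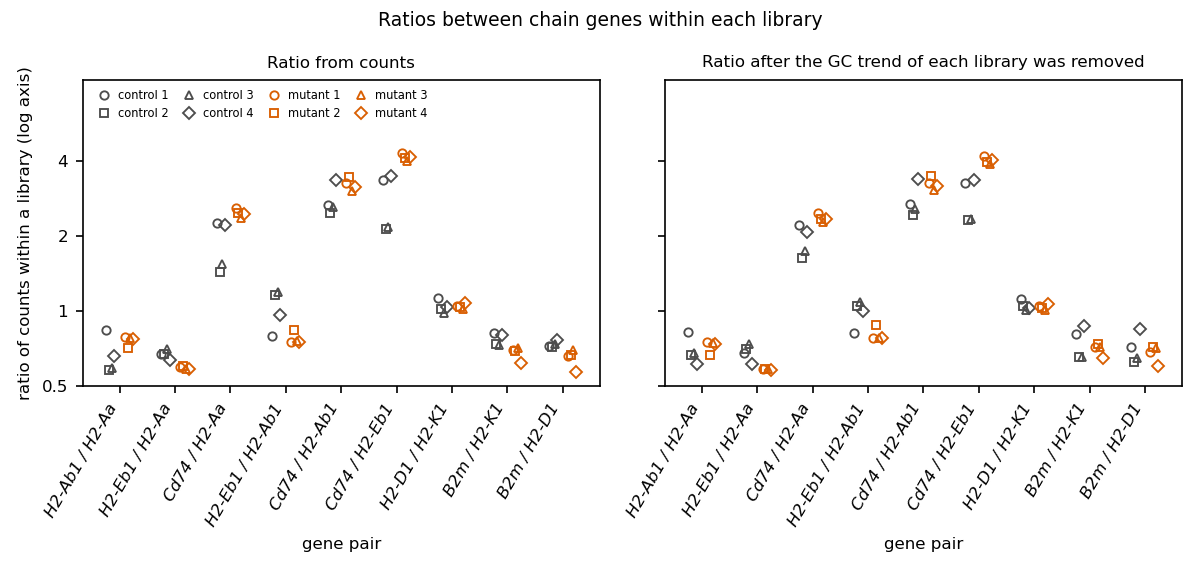
Ratio of the counts of 2 chain genes within each library for 9 gene pairs, on a log axis, from the counts (left) and after the GC trend of each library was removed (right). Grey symbols are controls and orange symbols mutant-labelled libraries, with 1 symbol shape per replicate number. On the left B2m per H2-K1 is lower in all mutant-labelled libraries, and on the right the groups overlap, while Cd74 per H2-Eb1 is higher in all of them on both sides.

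The controls were more variable than the mutant-labelled libraries in these genes, as in most others. They spread wider, on a log scale, in 19 of 23 class I and 11 of 11 class II members, against 74.1% of all genes tested. Among genes with a mean of at least 10 CPM the share was 83.3% in class I and 100% in class II, against 79.5% of all. Control 2 was the lowest control in 18 of 23 class I and 7 of 11 class II members, together 73.5%, against 20.2% of all genes tested. The 6 leukocyte markers were higher in controls 1 and 4 (744 and 517 CPM) than in controls 2 and 3 (332 and 296 CPM). Some members, such as Cd74, Ciita, H2-Ab1, Nlrc5 and Tap2, were also higher in controls 1 and 4 than in controls 2 and 3. The order inside these pairs was not that of the leukocyte sum in every pair. Others did not: in H2-Aa, H2-Eb1, H2-K1, H2-DMa, H2-DMb1 and H2-T23, control 3 lay above control 1. The 10 dendritic cell markers summed to 979, 1150, 1260 and 1010 CPM in controls 1 to 4 and 799 to 892 CPM in the mutant-labelled libraries. Most of that sum is Cst3, without which the other 9 summed to 324, 245, 252 and 243 CPM in controls and 226 to 259 CPM in the mutant-labelled libraries, so that the groups overlap. The 10 macrophage markers summed to 742 to 858 CPM in controls and 1050 to 1320 CPM in the mutant-labelled libraries, where Chil3, Mrc1 and Cd68 rose and Ear1 fell. Without Chil3 the other 9 summed to 437 to 561 CPM in controls and 479 to 574 CPM in the mutant-labelled libraries, with overlap, and Csf1r and Marco gave log2 fold changes of -0.36 and -0.21 without a call. The 8 T and NK cell markers summed to 36.9 to 74.9 CPM in controls and 51.5 to 58.9 CPM in the mutant-labelled libraries. No marker of these lists was at 0 in any library, and their part in the levels of the MHC genes was not tested.

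**Figure D5:**
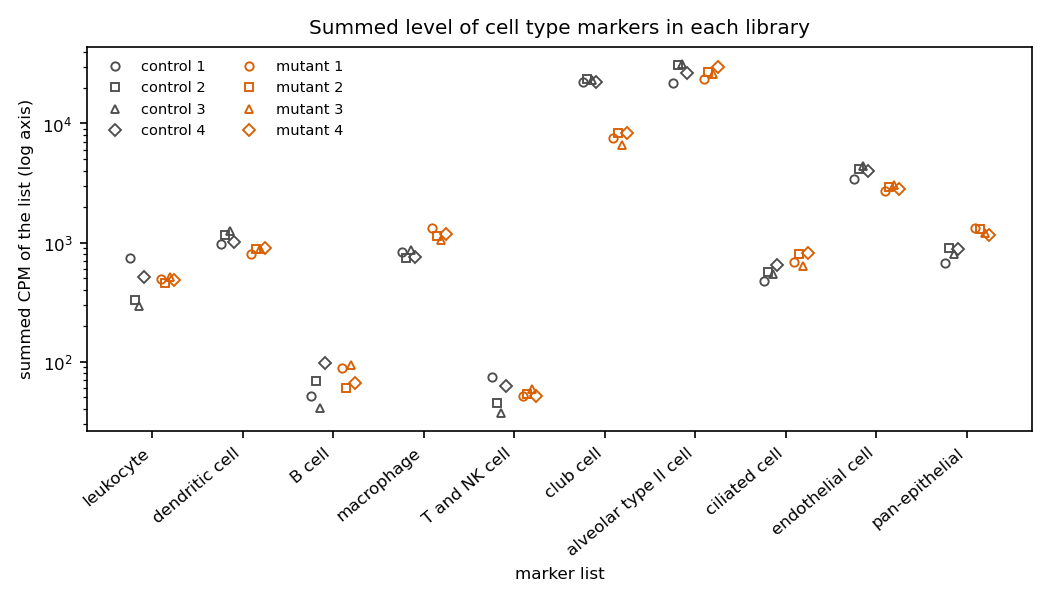
Summed CPM of 10 lists of cell type markers in each library, on a log axis. Grey symbols are controls and orange symbols mutant-labelled libraries, with 1 symbol shape per replicate number. The leukocyte sum is spread from 296 to 744 CPM in controls and narrow in mutant-labelled libraries, and the club cell sum is lower in all 4 mutant-labelled libraries.

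Which controls were used changed the calls over all genes, and those of the members with them. Controls 2 and 3 were the closest pair of controls, with a chi-square of 4.72 per gene against 20 to 45.3 for the other pairs. The part of this closeness in the number of calls was not tested. Without controls 1 and 4, when 40.7% of all genes were called, 5 class I members were called higher (Tap2 by 0.30, Tapbp by 0.25, Nlrc5 by 0.31, H2-Q10 by 1.57 and H2-M5 by 0.81 on the log2 scale) and 1 lower (H2-M3, -0.29). In class II, 4 were then called higher (Cd74 by 0.68, Ciita by 0.46, H2-Ab1 by 0.34 and H2-Oa by 0.72) and 1 lower (H2-Eb1, -0.26), and the median log2 fold change was 0.34 for class II and 0.09 for class I. Without controls 2 and 3, when 4.82% of all genes were called, 0 members of either class were called and the medians were -0.08 for class II and -0.19 for class I. Cd74 then gave 0.01 and Ciita 0.06, against 0.31 and 0.24 with all libraries. H2-Eb1 gave -0.26 under both choices, and H2-M3 gave -0.29 and -0.22.

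Per kilobase of exon, the order of the members set the light chain first. The length used joins all annotated exons of a gene, which can exceed its longest transcript. It was 2568 bases against 1212 for H2-Ab1, 2938 against 1874 for H2-K1 and 860 against 860 for B2m. The order and gaps given here hold for that length only. On the scale of CPM per kilobase, the mean level in controls was 1386 ± 130 for B2m, 693.6 ± 196 for Cd74, 625.2 ± 50.8 for H2-D1 and 525.8 ± 40.3 for H2-K1 (SD, n = 4 each). Cd74 and H2-D1 did not differ beyond their spread, and B2m stood above all other members. H2-Eb1, H2-Aa and H2-Ab1 followed at 213.9 ± 17.9, 162.9 ± 15.4 and 160.7 ± 28.5, of which the last pair did not differ beyond its spread. The regulators were far lower, with Nlrc5 at 5.916 ± 1.21 and Ciita at 3.981 ± 0.667. In mutant-labelled libraries the first 4 places were the same genes, at 1272 ± 68.8 for B2m, 858.4 ± 36.8 for Cd74, 655 ± 54.5 for H2-D1 and 547.4 ± 38.2 for H2-K1.

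Other genes of the 2 pathways were read from 2 lists of 20, all of them measured. Of the class I list, which holds the trimming enzyme Erap1, the chaperones Calr, Canx and Pdia3, proteasome subunits and the interferon gamma receptor with its signalling, 0 were called by edgeR's quasi-likelihood test, against 7.81% of all genes, and 3 of 20 by DESeq2 (Erap1, Irf1 and Jak1, all lower), against 13.4%. There were 5 of 20 at an unadjusted p under 0.05, against 25.2% of all genes, and a median log2 fold change of 0.00. Groups did not overlap for 4 of 20, against 16.8% of all genes, with Irf1, Erap1 and Jak1 lower and Psmb5 higher. By edgeR's quasi-likelihood test Irf1, a transcription factor that interferon induces, gave -0.20 ± 0.06 (adjusted p = 0.0961). Erap1 gave -0.21 ± 0.06 (adjusted p = 0.0688) and the proteasome subunit Psmb5 0.19 ± 0.06 (adjusted p = 0.0984). Of the class II list, which holds the RFX and NF-Y factors, lysosomal proteases and costimulators, 2 rose and 0 fell, against 5.45% and 2.36% of all genes, with 7 of 20 at an unadjusted p under 0.05 and a median log2 fold change of 0.01. DESeq2 called the same 2 higher and also called Creb1 and Icosl lower.

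The 2 genes of the class II list that rose, Ctss and Lgmn, encode lysosomal proteases, as do Ctsl, Ctsb and Ctsd, which gave log2 fold changes of -0.21, 0.09 and 0.29 without a call. Ctss, or cathepsin S, which trims the invariant chain, stood at 206.7, 139.7, 144.6 and 158.1 CPM in controls and 220.3, 238.1, 234.8 and 243.3 CPM in the mutant-labelled libraries (log2 fold change 0.53 ± 0.12, adjusted p = 0.0276). Lgmn, an asparaginyl endopeptidase, stood at 161.3, 166.6, 174.8 and 169.4 CPM in controls and 203.6, 194.2, 202.7 and 193.6 CPM in the mutant-labelled libraries (0.24 ± 0.06, adjusted p = 0.0417). In neither gene did the groups overlap. The call of Ctss was lost without controls 2 and 3 (0.36, adjusted p = 0.0989), without control 2 or 3 alone and without any 1 mutant-labelled library, and its adjusted p ran from 1.95e-05 to 0.0989 over the alternatives. That of Lgmn was lost without control 2, control 3 or any 1 mutant-labelled library, without control 1 and mutant-labelled library 4 together, with no filter and with the replicate block, and its adjusted p ran from 0.00045 to 0.13. Macrophages also carry these proteases. The macrophage marker sums given above were higher in all 4 mutant-labelled libraries with Chil3 and overlapped between groups without it, and their part in these changes was not tested. The RFX subunits Rfx5, Rfxap and Rfxank, which bind the X box, gave log2 fold changes of 0.18, 0.01 and 0.02, and none was called.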

How the data were processed

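RNA was measured in 8 libraries. The deposited table holds raw counts of read pairs per gene, which the authors made with featureCounts 1.6.2 against GENCODE M25 on GRCm38.p6, per the file headers. Reads were assigned without regard to strand, per the file headers, and those with several alignments or several genes were dropped. STAR, Bowtie2 and Cufflinks are named without roles in the submitters' processing notes, and the labels' protocols name 2 library kits without saying which library used which. Symbols and GC content came from GENCODE M21 (99.53% of identifiers matched), and levels per kilobase used the deposited exon lengths.

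Low counts were removed with filterByExpr at a minimum count of 10, which not every library has to reach, and a minimum total of 15, and libraries were scaled with TMM and compared with edgeR 4.0.16 in R 4.3.3 (robust quasi-likelihood fit, group as the only term, Benjamini-Hochberg adjustment over 16964 genes, threshold 0.05). Standard errors (after ±) were derived from the test statistic unless marked SD. On simulated data the test recovered 41.8% of genes changed 1.5-fold and 77.6% of those changed 2-fold among 16759 genes. Of its calls there, 7.1% fell on unchanged genes. The simulation drew genes independently and gave both groups an equal spread. The real controls spread wider in most genes, so these rates need not hold for the real libraries. Libraries of 1 group differed by a chi-square of 4.72 to 45.3 per gene, more than sampling noise, and controls 2 and 3 were the closest pair of controls (4.72, against 20 to 45.3). This does not show that they came from separate animals. The members and lists were chosen with earlier results of these data known, and the members given per library are the chains, loading and regulator genes, with other genes named where they were called or stood out. Irf1, Erap1, Psmb5 and the RFX genes were named after their values were seen. Alternatives covered scaling, filters, DESeq2 1.42.0, a replicate block, GC content (lowess span 0.3) and left-out libraries.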

Additional observations from a re-analysis of the deposited data

Results flagged for a closer look

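Of 70 groups of 4 libraries, 1 group of controls and 1 of mutant-labelled libraries for each of 35 measured members, 4 held a library far from the other 3, where the gap divided by the range exceeds the 95% critical value of Dixon's test. Chance alone flags about 1 group in 20. H2-M3 in mutant-labelled libraries gave 0.964, with library 3 at 26 CPM and the others at 22.2 to 22.4 CPM. Nlrc5 in mutant-labelled libraries gave 0.89, again from library 3, at 58.3 CPM against 48.8 to 49.8 CPM. B2m in controls gave 0.842, with control 2 at 1030 CPM and the others at 1230 to 1260 CPM. H2-Oa in mutant-labelled libraries gave 0.852, with library 2 at 2.73 CPM and the others at 3.8 to 3.98 CPM.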

How the results depend on the processing

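With all libraries in the edgeR fit, 924 genes were called higher and 401 lower in mutant-labelled libraries, with 0 class I members, 0 class II members and 2 genes of the pathway lists. Without controls 1 and 4 these became 3750, 3338, 6, 5 and 15, and the cause was not tested. DESeq2 called 939 genes lower, 1 class II member and 7 pathway genes. Without controls 2 and 3, 223 genes were called lower, and without control 1 and mutant-labelled library 4, 625. Leaving out 1 library at a time gave 515 to 1517 genes higher, 146 to 1117 lower, 0 to 1 class I members, 0 class II members and 0 to 5 pathway genes. The call of a class I member came without control 1. With no filter, 1 pathway gene was called. The labels state no pairing, and libraries with the same replicate number showed little shared deviation (correlations 0.018, 0.154, -0.131 and 0.157). This cannot show that the samples were unpaired. A replicate block gave 865 genes higher, 371 lower, 0 class I members, 0 class II members and 1 pathway gene. Of 629 values of members under these alternatives, 13 passed the threshold and the rest stayed under it, 53 of them with the opposite sign to the value reported. With library totals in place of TMM the median of all genes was 0.05, against -0.01, with class I at -0.01 and class II at 0.17. With the GC trend removed the class II median was 0.02. Values under 10 CPM are limited by depth.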

Other observations

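Rows with H2- symbols that are not protein-coding were read as counts. H2-Q5 held 418 to 825 counts per library, H2-K2 238 to 423 and H2-T10 124 to 217, with log2 fold changes of 0.04 ± 0.13, -0.20 ± 0.12 and -0.02 ± 0.12, and none was called by edgeR's quasi-likelihood test. H2-Ke6, the dehydrogenase that belongs to neither class, had a mean of 0.9195 ± 0.0792 CPM in controls and 0.8555 ± 0.275 CPM in the mutant-labelled libraries (SD, n = 4 each), and 86.4% of its exon bases lie in exons of Gm20427.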
